A study of Mus musculus with 2 samples.

Results

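The genes described are 6 enzymes and enzyme-like proteins of myeloid immunometabolism: Arg1, Nos2, Acod1, Chil3, Il4i1 and Ido1. They were taken by symbol from the 32285 genes of the feature list, where all 6 were found, and were read in the CD45-positive brain library across monocyte-derived, microglia, dendritic and neutrophil cells set by marker genes. The members were selected on their measured levels across these cell classes, so the levels are descriptions, with no test. Brain cells came from C57BL mice aged 8 to 13 weeks, 24 h into a model that resembles neuromyelitis optica spectrum disorder, an antibody-driven disease of astrocytes. Cells were divided by CD45, the surface protein of leukocytes, into a CD45-positive and a CD45-negative library of droplet-based single cells, both from the same model. How the model was induced, any genotype beyond the strain and the number of mice behind a library are not stated by the labels, and no library of untreated mice was analysed here. Each group is 1 library, so no difference has a replicate check, and every interval below covers counting error only.

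Arginase 1 (Arg1) cleaves arginine to ornithine and urea and is a known product of interleukin-4-stimulated macrophages, while inducible nitric oxide synthase (Nos2) turns the same arginine into nitric oxide and citrulline. Acod1 makes itaconate from the citrate cycle intermediate cis-aconitate and is known to be induced by endotoxin. Il4i1 is a secreted oxidase of aromatic amino acids, and Ido1 opens the kynurenine route of tryptophan breakdown. Chil3, also called Ym1, is a chitinase-like protein of mouse myeloid cells that binds sugars but is not known as an active chitinase.

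In GENCODE annotation of GRCm38, all 6 are protein-coding genes. Arg1 (ENSMUSG00000019987) lies at chr10:24915221-24927484 on the minus strand and Nos2 (ENSMUSG00000020826) at chr11:78920787-78960254 on the plus strand. Acod1 (ENSMUSG00000022126) lies at chr14:103046977-103056573 on the plus strand and Chil3 (ENSMUSG00000040809) at chr3:106147554-106167564 on the minus strand. Il4i1 (ENSMUSG00000074141) lies at chr7:44816387-44840809 on the plus strand, and Ido1 (ENSMUSG00000031551) at chr8:24584136-24597009 on the minus strand. Il4i1 overlaps Nup62 on its own strand and Atf5 and Tbc1d17 on the other, so reads could be shared between them. Nup62, which encodes a nuclear pore protein, had 29.2 CPM (UMIs, the counted transcript molecules, scaled to all UMIs of a class) in migratory dendritic-like cells, against 1060 CPM of Il4i1 there.

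Upstream bases are shown for Acod1 and for Chil3 with its neighbouring copy Chil4, because these genes carry the neutrophil and monocyte results below and because the copy had no UMI. The windows come from RefSeq (GRCm38.p6), 5′ to 3′ on the gene's strand, and end before the start of the gene in GENCODE. They span chr14:103046762-103046976, plus strand, for Acod1, chr3:106167565-106167814, minus strand, for Chil3 and chr3:106219508-106219729, minus strand, for Chil4.
Acod1: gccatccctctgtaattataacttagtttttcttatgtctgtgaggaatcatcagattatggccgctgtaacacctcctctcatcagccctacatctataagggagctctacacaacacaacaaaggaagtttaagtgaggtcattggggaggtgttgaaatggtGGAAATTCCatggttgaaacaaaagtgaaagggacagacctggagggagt
Chil3: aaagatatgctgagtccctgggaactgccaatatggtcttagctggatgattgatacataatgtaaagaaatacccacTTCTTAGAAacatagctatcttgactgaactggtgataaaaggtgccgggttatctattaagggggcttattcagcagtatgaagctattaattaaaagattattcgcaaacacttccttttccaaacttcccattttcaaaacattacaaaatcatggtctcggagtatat
Chil4: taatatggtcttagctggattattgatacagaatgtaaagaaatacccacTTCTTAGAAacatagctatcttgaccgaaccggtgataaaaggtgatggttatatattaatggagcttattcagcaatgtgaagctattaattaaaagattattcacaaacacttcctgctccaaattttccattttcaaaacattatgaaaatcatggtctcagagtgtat
Searched were 7 motifs, which included the TATA box, and the rarest match in Acod1 and the shared match of Chil3 and Chil4 are marked. Capitals in Acod1 mark a match to GGAANTTCC, a kappa B-like motif, which 0.813% of 32851 RefSeq windows of 250 upstream bases hold on either strand. Capitals in Chil3 and Chil4 mark a match to TTCNNNGAA, a motif bound by STAT factors, which 7.02% of the windows hold. A match to GAGGAA, a PU.1-like motif, was also found in Acod1, as in 23.3% of the windows. A match to TTGCNNAA, a C/EBP motif, was found in Chil4 and not in Chil3, as in 9.56% of the windows. Matches to the TATA box in Acod1 and Chil4 reached into bases that are not shown. Each motif was searched on both strands, and a match is a description of letters and not a measured site. Over 221 aligned bases of their full windows, Chil3 and Chil4 were identical at 91.0% of positions. Chil4 had 0 UMIs in all 8433 kept cells of the CD45-positive library, so the UMIs below are those assigned to Chil3. Reads that match both copies could not be told apart from the deposited counts.

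There were 8662 CD45-positive barcodes with 76182401 UMIs in total, of which 8433 cells were kept with a median of 6100 UMIs. There were 14524 CD45-negative barcodes with 92691820 UMIs in total, and 27 barcodes occurred in both. Cells were clustered without the 6 genes and named from markers. The classes compared were 204 monocyte-derived-like cells, 104 neutrophil-like cells, 48 migratory dendritic-like cells, 228 conventional dendritic-like cells and 2053 microglia-like cells. Pooled over each class, the defining markers fitted these names. The monocyte marker Ccr2 had 859 CPM in monocyte-derived-like and 8.37 CPM in microglia-like cells, and Tmem119, a microglia marker, had 80.2 and 796 CPM in the same order of classes. S100a8 reached 17000 CPM in neutrophil-like cells and 261 CPM in monocyte-derived-like cells, and Ccr7 2190 CPM in migratory and 7.45 CPM in conventional dendritic-like cells.

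A second set of cells had monocyte or neutrophil markers together with many microglia transcripts, and was kept apart. It held 192 monocyte-derived-like and 311 neutrophil-like cells with at least 5000 CPM of 13 summed microglia markers, a limit chosen after seeing the data. These mixed cells were deep, with medians of 20349 and 23068 UMIs, against 8453.5 and 2868.5 UMIs in the monocyte-derived-like and neutrophil-like cells under the limit. Cells within 4000 to 6000 CPM, near the limit, numbered 36 and 25. The part of doublets and of free RNA in these cells was not tested. Free RNA was read from 2574 T cell-like cells, which should lack the 6 genes as a class.

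Arg1 was concentrated in monocyte-derived-like cells. It reached 1240 CPM there (95% Poisson interval 1190 to 1300; 2232 UMIs), against 4.29 CPM (3.55 to 5.14) in microglia-like, 2.07 CPM in conventional dendritic-like and 5.76 CPM (2 UMIs) in neutrophil-like cells. T cell-like cells had 4.11 CPM (3.09 to 5.36), so the microglia, conventional dendritic and neutrophil levels of the whole classes were not above this background. Of 6 microglia-like clusters, 1 was above it, with 8.04 CPM (6.12 to 10.4; 59 UMIs in 25 of 482 cells). An unnamed cluster of 408 cells, led by Saa3 and Afp, had 11.2 CPM (47 UMIs). The background was itself uneven: a shallow T cell-like cluster of 571 cells, with a median of 959 UMIs, had 16.2 CPM (10 UMIs). The ratio of monocyte-derived-like to microglia-like cells was 289 (exact conditional binomial interval 240 to 351). Migratory dendritic-like cells had 0 UMIs, which allows up to 7.98 CPM at 3 UMIs. Monocyte-derived-like cells and their mixed counterparts, which stood at 595 CPM, together held 88.6% of all Arg1 UMIs of the library.

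Arg1 was uneven among the monocyte-derived-like cells themselves. A UMI was found in 97 of 204 cells, 47.5% (Clopper-Pearson interval 40.5 to 54.6%), against 1.86% of T cell-like cells, whose median depth was 4724 UMIs. After each cell was thinned to 1000 UMIs, which left out 7 monocyte-derived-like cells, the shares were 29.9% and 0.225%. The single cells ranged from 0 to 10300 CPM with a median of 0, and 12 cells held as many Arg1 UMIs as all the others, or more. In 3 bins of 68 cells by depth, the levels were 612, 926 and 1490 CPM, from the shallowest to the deepest bin. Chil3 ran the other way over the same bins, at 2770, 2390 and 1850 CPM, so the summed balance of these 2 genes differed with depth. The cell with the highest Chil3 level, 45300 CPM at 2139 UMIs, lay in the shallowest bin. The bins were not recomputed without such cells.

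Chil3 followed the same classes but was also found in neutrophil-like cells. It had 2090 CPM (2030 to 2160; 3758 UMIs) in monocyte-derived-like cells, against 418 CPM (353 to 492; 145 UMIs) in neutrophil-like and 4.84 CPM (4.05 to 5.74) in microglia-like cells. Migratory and conventional dendritic-like cells had 13.3 CPM (5 UMIs) and 2.48 CPM (6 UMIs), and T cell-like cells 6.85 CPM (5.51 to 8.42). The microglia and dendritic levels therefore had intervals that overlapped that of T cell-like cells or lay below it. In monocyte-derived-like cells 130 of 204 had a UMI, 63.7% (56.7 to 70.3%), and 49.2% after thinning, against 3.30% and 0.855% of T cell-like cells. The neutrophil level was carried by few cells: 11 of 104 had a UMI, and 1 cell held 49.7% of the UMIs. Among the 6 microglia-like clusters, Chil3 was highest at 17.7 CPM (12 to 25.3; 30 UMIs in 8 cells) in 100 cells led by the cell cycle genes Pbk, Esco2 and Mki67. Monocyte-derived-like cells and their mixed counterparts, at 730 CPM, held 88.5% of the library's Chil3 UMIs.

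**Figure D1:**
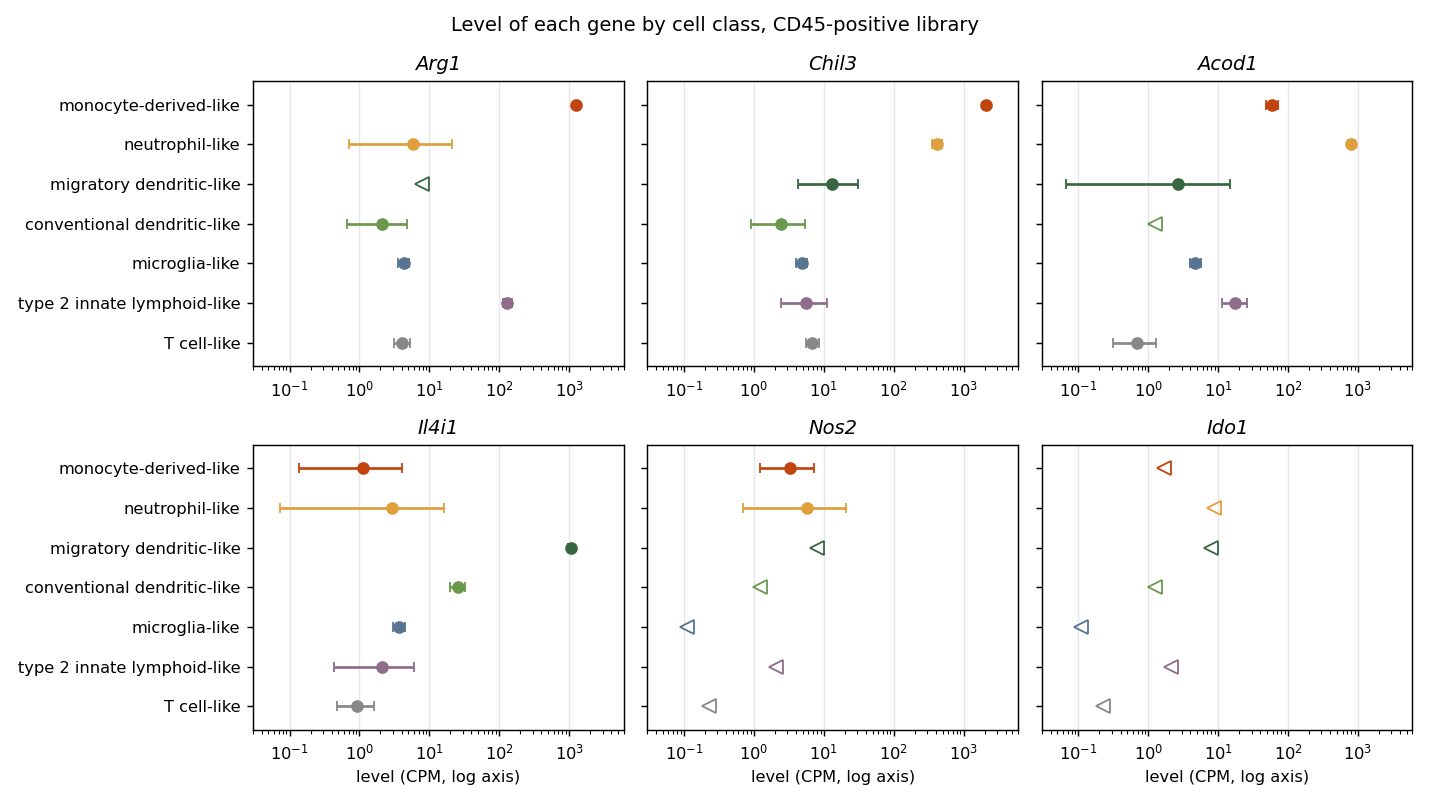
Level of each gene (CPM, log axis) summed over the cells of each class in the CD45-positive library; points carry 95% Poisson intervals, and open triangles mark 0 UMIs, drawn at the level that 3 UMIs would give. Arg1 and Chil3 peak in monocyte-derived-like cells at 1240 and 2090 CPM, Acod1 in neutrophil-like cells at 801 CPM and Il4i1 in migratory dendritic-like cells at 1060 CPM, while Nos2 and Ido1 stay low throughout.

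Acod1 had another leading class. Neutrophil-like cells had 801 CPM (710 to 901; 278 UMIs), against 59.6 CPM (48.8 to 72.0; 107 UMIs) in monocyte-derived-like cells, a ratio of 13.4 (10.7 to 17.0). Microglia-like cells had 4.69 CPM (3.92 to 5.58) and T cell-like cells 0.685 CPM (0.313 to 1.30), while conventional dendritic-like cells had 0 UMIs, which allows up to 1.24 CPM. The ratio of monocyte-derived-like to microglia-like cells was 12.7 (9.73 to 16.5). A UMI was found in 57 of 104 neutrophil-like cells, 54.8% (44.7 to 64.6%), and in 36 of 204 monocyte-derived-like cells, 17.6% (12.7 to 23.6%). After thinning, the shares were 38.0% and 5.58%, against 0.090% of T cell-like cells. S100a8 in monocyte-derived-like cells stood at 261 CPM beside 17000 CPM in neutrophil-like cells, and the part of neutrophil RNA in their Acod1 was not tested.

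The neutrophil-like class pooled 2 unlike clusters. The 72 cells of the first, led by Il1f9, Slpi and Gdf15, had 998 CPM of Acod1 (873 to 1140; 228 UMIs) and 26.3 CPM of Chil3 (6 UMIs). The 32 cells of the second, led by S100a9, S100a8 and Cxcr2, had 421 CPM of Acod1 (313 to 556) and 1170 CPM of Chil3 (985 to 1380; 139 UMIs in 9 cells). The single cell with the largest share of the class's Chil3 UMIs, given above, lay in this second cluster. Acod1 was thus above the monocyte-derived-like level in both, while nearly all Chil3 of the class lay in the second.

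The mixed neutrophil-like cells had 165 CPM of Acod1 (156 to 174; 1333 UMIs in 216 of 311 cells), and neutrophil-like cells with and without microglia transcripts held 75.7% of the library's Acod1 UMIs. Among the 6 microglia-like clusters, Acod1 ran from 0.631 CPM to 12.4 CPM. The highest belonged to the same 482 cells in which Arg1 had 8.04 CPM, led by Ch25h, Marco and Lpl, which encode a cholesterol hydroxylase, a scavenger receptor and lipoprotein lipase. An unnamed cluster of 408 cells, also with Marco and Lpl among its leading genes, had 8.12 CPM (34 UMIs).

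Il4i1 was highest in migratory dendritic-like cells. They had 1060 CPM (959 to 1170; 399 UMIs), against 25.7 CPM (19.7 to 32.9; 62 UMIs) in conventional dendritic-like cells, a ratio of 41.3 (31.6 to 54.9). Levels were 3.68 CPM in microglia-like, 2.88 CPM (1 UMI) in neutrophil-like and 1.11 CPM (2 UMIs) in monocyte-derived-like cells, and 0.913 CPM in T cell-like cells. A UMI was found in 43 of 48 migratory dendritic-like cells, 89.6% (77.3 to 96.5%), and in 14 of 228 conventional dendritic-like cells, 6.14% (3.40 to 10.1%). After thinning, the shares were 58.7% and 1.36%, against 0.090% of T cell-like cells. The conventional dendritic level was set by 1 cell, which held 59.7% of its UMIs. It lay in the cluster led by Cd209a and Clec10a, at 44.1 CPM, while the cluster led by Clec9a and Xcr1, markers of cross-presenting dendritic cells, had 1 UMI (0.947 CPM). A further 104 cells with both monocyte and dendritic markers, left unnamed, had 65.2 CPM (52.5 to 80.1). Migratory dendritic-like cells held 47.3% of the library's Il4i1 UMIs, the more numerous microglia-like cells 12% and these unnamed cells 10.8%.

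Nos2 and Ido1 were close to undetected. Nos2 had 24 UMIs in 22 of the 8433 kept cells. Monocyte-derived-like cells had 6 of them (3.34 CPM, 1.23 to 7.27), neutrophil-like cells 2 (5.76 CPM, 0.698 to 20.8) and mixed neutrophil-like cells 13 (1.61 CPM). Microglia-like cells had 0 Nos2 UMIs, which allows up to 0.109 CPM, and T cell-like and both dendritic classes also had 0. The monocyte-derived-like level of Nos2 thus stood beside 1240 CPM of Arg1, from a 3′ assay in which transcripts of both genes are counted near their ends. Ido1 had 1 UMI in the whole kept library, in an unnamed cell, and its related gene Ido2 had 0. In monocyte-derived-like cells 0 UMIs of Ido1 allow up to 1.67 CPM.

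Co-detection was examined for Arg1 with Chil3 and with Acod1. Of 204 monocyte-derived-like cells, 72 had UMIs of both Arg1 and Chil3, 25 of Arg1 alone, 58 of Chil3 alone and 49 of neither. Independence at these shares would give 61.8 cells with both. Chil3 was found in 74.2% of cells with Arg1 (64.3 to 82.6%), against 54.2% of cells without Arg1 (44.3 to 63.9%). Deep cells give more UMIs of every gene, and at 1000 UMIs a cell the shares were 54.2% (40.8 to 67.3%) and 47.1% (38.6 to 55.8%), with intervals that overlapped. Over 20 thinning draws they averaged 57.3% and 43.7%, and the share with Arg1 was the higher in 20 of 20 draws, which share the same cells. In the 3 depth bins, from lowest to highest, Chil3 was found in 73.7, 77.1 and 72.1% of cells with Arg1, against 44.9, 57.6 and 68.0% of cells without. With a microglia marker limit of 10000 CPM the shares at 1000 UMIs were 44.4% with Arg1 and 43.5% without, and with no limit 46.1% and 38.7%. At 1000 UMIs a cell, the difference was therefore no larger than the counting intervals.

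Acod1 was found in 17.5% of monocyte-derived-like cells with Arg1 and in 17.8% of those without. The 17 cells with both were close to the 17.1 of independence. These values are at all UMIs, so depth was not held fixed. From the shallowest to the deepest bin, Arg1 was found in 27.9, 51.5 and 63.2% of cells and Acod1 in 8.82, 20.6 and 23.5%. In neutrophil-like cells Acod1 and Chil3 met in 5 cells, where independence over the whole class would give 6.03, although the pair led in different clusters of it.

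**Figure D2:**
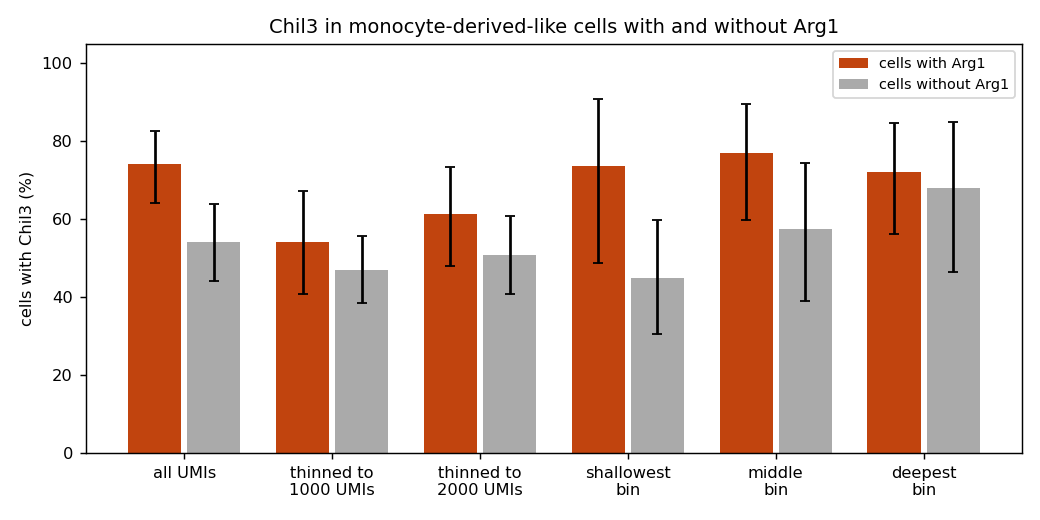
Share of monocyte-derived-like cells with a Chil3 UMI (%), in cells with Arg1 (left bar) and without Arg1 (right bar), at all UMIs, after thinning and in 3 bins of 68 cells by depth; error bars are 95% Clopper-Pearson intervals. The gap is 74.2% against 54.2% at all UMIs and 54.2% against 47.1% in the thinning draw shown at 1000 UMIs a cell.

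The monocyte-derived-like cells were further divided into 5 sub-clusters without the 6 genes, and the balance of Arg1 to Chil3 differed among them. The 49 cells of sub-cluster 1, led by Ddit4, Lrg1 and Mmp8, had 3540 CPM of Chil3 (3360 to 3720), 618 CPM of Arg1 (546 to 697) and 2.34 CPM of Acod1 (1 UMI). The 28 cells of sub-cluster 4, led by Mirt1 and Iqce, had 587 CPM of Chil3 (501 to 684), 1500 CPM of Arg1 (1360 to 1650) and 95.5 CPM of Acod1. Of its 424 Arg1 UMIs, 1 cell held 196, and without that cell Arg1 was 935 CPM. Chil3 without its own highest cell was 418 CPM. Sub-cluster 3, with 36 cells led by the chemokine Cxcl3 and by Gpnmb, had 1630 CPM of Arg1 and 1850 CPM of Chil3, and Arg1 was found in 66.7% of its cells. Sub-cluster 2, with 40 cells led by the interferon-induced Cxcl10, Ifit2 and Gbp5, had 138 CPM of Acod1 (98.7 to 188), 984 CPM of Arg1 and 2790 CPM of Chil3. Sub-cluster 0, with 51 cells, had 1540 CPM of Arg1 and 1360 CPM of Chil3, a median depth of 4700 UMIs and the microglia and plasmacytoid dendritic gene Siglech among its leading genes. Intervals take UMIs as independent, while a few cells hold many of them, so they are narrower than the spread between cells.

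**Figure D3:**
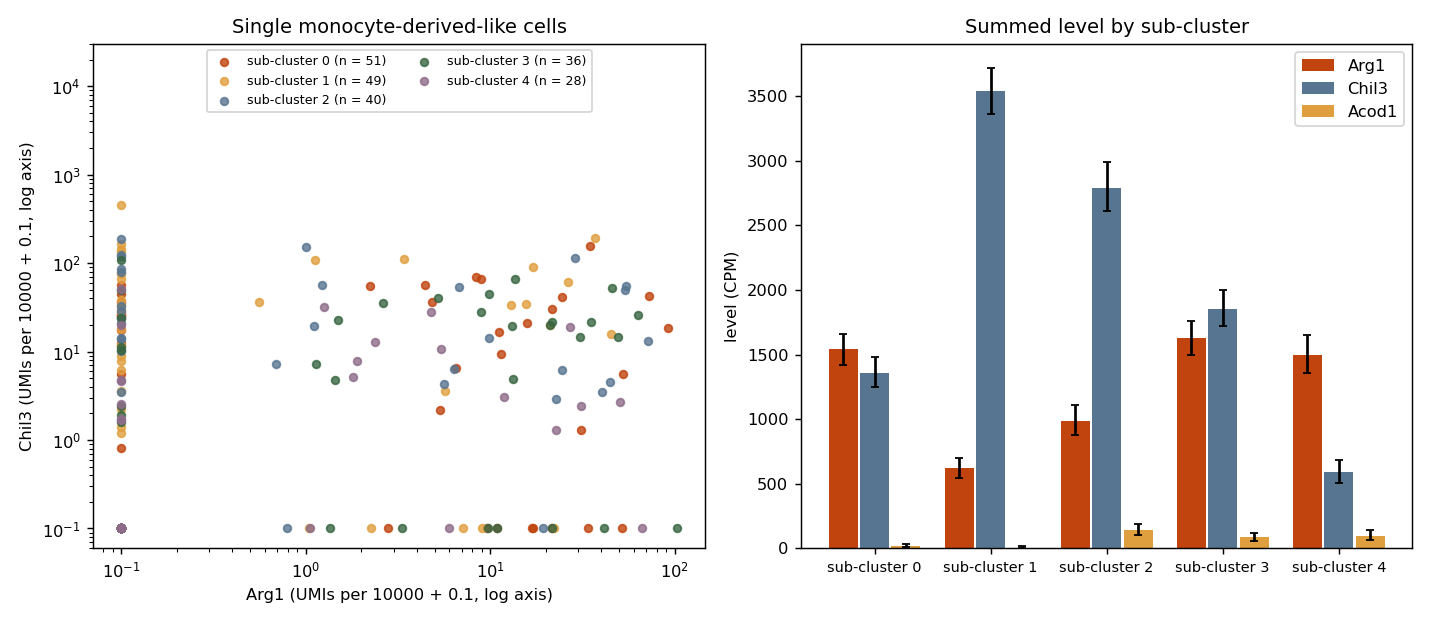
Left, Arg1 against Chil3 in the 204 single monocyte-derived-like cells (UMIs per 10000 plus 0.1, log axes; cells at 0 lie on the 0.1 lines, and the 49 cells with neither overlap in the corner), coloured by sub-cluster. Right, summed CPM of Arg1, Chil3 and Acod1 by sub-cluster with 95% Poisson intervals: Chil3 runs from 587 to 3540 CPM and Arg1 from 618 to 1630 CPM.

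Genes most like each member were ranked by Pearson's r of log2(CPM + 1) over 32 sets of at least 50 cells, among 12084 genes. The sets were clusters, with cells over the microglia limit set apart, so the monocyte-derived-like cluster entered as sets of 204 and 192 cells. The 48 migratory dendritic-like cells, in which Il4i1 was highest, and the 32 neutrophil-like cells led by S100a9 were too few to enter. The sets share 1 library, and r is a description. For Arg1 they were Cxcl1 (r = 0.82), a neutrophil-attracting chemokine, Apoc2, Cd177, Cfb and Vcan (0.77 to 0.78). For Acod1 they were Ankrd33b and Gdf15 (0.91), Clec4d and Cxcl2 (0.89) and Ptgs2 (0.88), the inducible prostaglandin synthase. For Chil3 they were Cd177 (0.83), Ms4a8a (0.79), Sirpb1c (0.78), Gm5150 and Dmkn (0.77). For Il4i1 they were the chemokine Ccl17 (0.75), Mvp (0.73), Upb1 (0.70), Cd209d (0.69) and Smim5 (0.68). Nos2 and Ido1 had under 100 UMIs and were not ranked.

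Within the monocyte-derived-like class, the thinned cells with an Arg1 UMI were set beside those without. Spp1, which encodes osteopontin, had 2420 CPM in cells with Arg1 and 290 CPM in cells without, a ratio of 8.36 (5.85 to 12.2). Ccl7, a monocyte-attracting chemokine, had a ratio of 3.64 (2.55 to 5.22), and Vamp8, Mif and Selenow had ratios of 2.58, 2.54 and 2.41. In cells with Chil3, Cxcl10 had 1330 CPM, against 330 CPM in cells without, a ratio of 4.03 (2.73 to 6.1). Saa3, Slpi, Ecm1 and Msr1 had ratios of 3.35, 3.28, 3.16 and 2.17. These 10 genes were the highest of 615 compared in each case, and such ranking favours high ratios.

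Pathway genes around the 6 were read from 9 fixed lists, as monocyte-derived-like over microglia-like CPM, with at least 2-fold as the size that counted. Over all 12281 genes compared, 10.3% were at least 2-fold higher and 32.2% at least 2-fold lower in monocyte-derived-like cells, and the median log2 ratio was -0.52. Of the 6 members, Arg1, Chil3 and Acod1 were above 2-fold among those with enough UMIs to be compared, which the choice of members rests on. Nos2 had too few UMIs for that comparison, with 6 in monocyte-derived-like and 0 in microglia-like cells. Its ratio was at least 30.6 when the count of 0 was set at 3 UMIs. Il4i1 was lower, at 1.11 and 3.68 CPM, a ratio of 0.303 (0.0362 to 1.12) that rests on 2 UMIs in monocyte-derived-like cells. Ido1 had 0 UMIs in both classes. The arginine and polyamine list had 2 of 15 genes higher and 1 lower, with a median of -0.37. Sat1, which acetylates polyamines, had 639 CPM in monocyte-derived-like and 294 CPM in microglia-like cells, and 1090 CPM in neutrophil-like cells. Oaz1, which limits polyamine synthesis, stood at 676 and 673 CPM in monocyte-derived-like and microglia-like cells. Smox, a spermine oxidase, had 83.5 and 43.8 CPM in those classes. Arg2, the mitochondrial arginase, had 182 CPM (63 UMIs) in neutrophil-like, 27.3 CPM (49 UMIs) in monocyte-derived-like and 0.0728 CPM (2 UMIs) in microglia-like cells.

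The nitric oxide and tetrahydrobiopterin list had 2 of 8 genes higher and 3 lower, with a median of -0.62. Both higher genes were large: Ass1, which rebuilds arginine from citrulline, had 185 CPM in monocyte-derived-like and 3.86 CPM in microglia-like cells, and Gch1, the first enzyme of tetrahydrobiopterin synthesis, 125 and 7.79 CPM. Ass1 was highest in migratory dendritic-like cells at 394 CPM. Pts and Spr, the later enzymes of that cofactor's synthesis, had 43.4 and 27.3 CPM in monocyte-derived-like cells, against 65.8 and 43.4 CPM in microglia-like cells. The itaconate and citrate list had 2 of 14 higher and 1 lower, with a median of -0.14. Hmox1, the haem oxygenase, had 392 CPM in monocyte-derived-like and 52.0 CPM in microglia-like cells, and 597 CPM in neutrophil-like cells. Nfe2l2, the regulator of Hmox1, had 194 and 173 CPM in monocyte-derived-like and microglia-like cells, and 418 CPM in neutrophil-like cells. The succinate dehydrogenase subunit Sdhb had 167 and 133 CPM in those classes.

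The tryptophan, kynurenine and aryl hydrocarbon receptor list had 2 of 12 genes higher and 4 lower, with a median of -0.57. Its kynurenine enzymes Kmo and Kynu were highest in dendritic classes, which had 0 UMIs of Ido1. Kmo had 140 CPM in conventional dendritic-like cells and 2.78 CPM in monocyte-derived-like cells, and Kynu had 53.2 CPM in migratory dendritic-like cells and 0 UMIs in monocyte-derived-like cells. Tiparp, a target of the aryl hydrocarbon receptor, had 76.8 CPM in monocyte-derived-like and 21.5 CPM in microglia-like cells. The amino acid transporter chain Slc3a2 had 358 and 359 CPM. Naaa had 121 and 258 CPM and was among the 4 lower genes, but it encodes a lysosomal hydrolase of lipid amides and not a kynurenine enzyme. The chitinase list had 0 of 3 higher or lower, with a median of -0.50. Chil1, another chitinase-like gene, had 239 CPM in neutrophil-like cells, against 0.557 CPM in monocyte-derived-like cells, and the lysosomal Ctbs and Chid1 had 28.4 and 25.6 CPM in monocyte-derived-like cells, against 54.1 and 32.1 CPM in microglia-like cells.

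Of the regulators of the members, 7 of 25 were higher and 3 lower, with a median of 0.09. Hif1a, the hypoxia factor, had 385 CPM in monocyte-derived-like and 88.8 CPM in microglia-like cells. Cebpb, a factor known to act on Arg1, had 2240 and 600 CPM in those classes, and 3010 CPM in neutrophil-like cells. The interferon-gamma receptor chain Ifngr1 had 271 and 514 CPM. Trem1, an activating receptor of myeloid cells, had 50.7 CPM in monocyte-derived-like and 0.946 CPM in microglia-like cells, and 205 CPM in neutrophil-like cells. The transcription factor Klf4 had 119 and 32.1 CPM in monocyte-derived-like and microglia-like cells, and 165 CPM in conventional dendritic-like cells.

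In the lists for both textbook macrophage states, most genes compared were at least 2-fold higher in monocyte-derived-like than in microglia-like cells. Among all 5 classes, 5 of 11 measured interleukin-4 type genes were highest in monocyte-derived-like cells. Of the interferon-gamma and endotoxin type, 1 of 13 was, with 7 highest in migratory dendritic-like and 4 in neutrophil-like cells. Over all 12583 genes, the shares were 8.67% in monocyte-derived-like, 16.2% in migratory dendritic-like and 16.1% in neutrophil-like cells. The interleukin-4 type list had 7 of 9 genes higher and 1 lower, with a median of 3.20, and the interferon-gamma and endotoxin type list had 8 of 13 higher and 2 lower, with a median of 2.42. Of the listed genes, Fn1 also served as a marker of the monocyte-derived class and was bound to differ. Clec10a, Ccl22, Il12b, Mrc1 and Cd163 served as markers of dendritic or border macrophage classes. Tgm2, a transglutaminase, had 384 CPM in monocyte-derived-like and 41.8 CPM in microglia-like cells, and Msr1, a scavenger receptor, 443 and 311 CPM. The marker Fn1 had 1410 and 53.7 CPM. Ccl22 and Ccl17, chemokines that share a receptor, had 1750 and 383 CPM in migratory dendritic-like cells, and 0 and 1 UMI in monocyte-derived-like cells. Of the 13 genes of the interleukin-4 type list in the files, 4 had too few UMIs in monocyte-derived-like and microglia-like cells to be compared. They were Ccl17, Retnla, which had 0 UMIs in all 5 classes, and Mgl2 and Cd163, which had 4 UMIs each in monocyte-derived-like cells. Of the other list, Il1b had 1210 CPM in monocyte-derived-like and 65.9 CPM in microglia-like cells, and 3620 CPM in neutrophil-like cells. Cxcl10 had 761 and 142 CPM in monocyte-derived-like and microglia-like cells, the costimulatory Cd40 18.9 and 1.24 CPM, Ptgs2 109 and 12.8 CPM, and Socs3, a brake on cytokine signals, 248 and 314 CPM. Of the 5 classes, Cxcl10 was highest in monocyte-derived-like cells and Cd40 in migratory dendritic-like cells, at 170 CPM. Ptgs2 and Socs3 were highest in neutrophil-like cells, at 268 and 519 CPM. Tnf, named after its values were seen, had 46.2 CPM in monocyte-derived-like and 146 CPM in microglia-like cells.

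The hypoxia and glycolysis list had 7 of 12 genes higher and 0 lower, with a median of 1.10. Pkm, the last kinase of glycolysis, had 1210 and 626 CPM in monocyte-derived-like and microglia-like cells, Pgk1 401 and 196 CPM and Ldha, the lactate dehydrogenase chain, 569 and 395 CPM. Pfkp had 90.2 and 2.87 CPM in the same order, and was highest in conventional dendritic-like cells at 339 CPM. Egln3, a hypoxia-induced hydroxylase, had 5.01 CPM in monocyte-derived-like and 11.5 CPM in neutrophil-like cells. Of this list, 9 of 13 measured genes were highest in monocyte-derived-like cells among the 5 classes. Of all 12583 genes, 8.67% were highest in monocyte-derived-like, 16.1% in neutrophil-like, 16.2% in migratory dendritic-like, 12.7% in conventional dendritic-like and 46.4% in microglia-like cells.

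**Figure D4:**
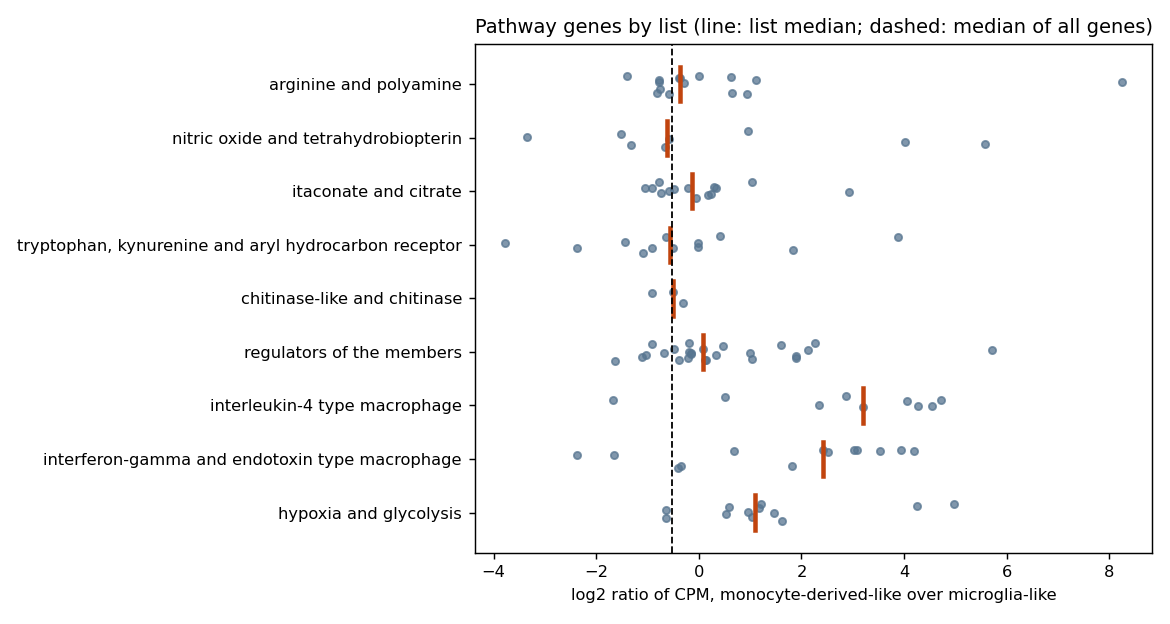
log2 ratio of CPM in monocyte-derived-like over microglia-like cells for each gene of the 9 lists (points) with the list median (thick line) and the median of all genes (dashed line, -0.52). The interleukin-4 type list sits highest, with a median of 3.20, and the interferon-gamma and endotoxin type list next, at 2.42.

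Between the libraries, 4 of the 6 genes were higher in the CD45-positive library. Arg1 had 75.9 CPM in CD45-positive and 7.69 CPM in CD45-negative cells, a ratio of 9.87 (9.09 to 10.7). The ratios were 8.16 (7.22 to 9.26) for Acod1, 29.2 (26.1 to 32.9) for Chil3 and 30.4 (21.2 to 45.0) for Il4i1. Nos2 was lower, with 0.324 CPM in CD45-positive and 0.677 CPM in CD45-negative cells, a ratio of 0.478 (0.284 to 0.785), and Ido1 had 1 and 12 UMIs. The CD45-negative library also held 11 monocyte-derived-like cells, with 1200 CPM of Arg1 (1010 to 1410) and 1040 CPM of Chil3 (871 to 1240), and 28 neutrophil-like cells, with 793 CPM of Acod1 (693 to 903). The microglia marker limit was not applied to these CD45-negative classes. Without it, the CD45-positive classes had 776 CPM (Arg1), 1110 CPM (Chil3) and, in neutrophil-like cells, 313 CPM (Acod1). The leading classes of these 3 genes were thus found in both libraries, although the 28 neutrophil-like cells also had 1030 CPM of Arg1, of which 1 cell held 200 of 295 UMIs. Among CD45-negative cells, the endothelial-like class had 27 Nos2 UMIs in 23 of 872 cells (7.96 CPM, 5.24 to 11.6).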

How the data were processed

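Dissociated brain cells, separated by CD45, were profiled at transcript 3′ ends with 10x Genomics droplets, per the labels' protocols. The authors deposited raw UMI counts for each gene in each cell. Cell Ranger 6.1.2 and the mm10 build are named in the submitters' processing notes. Neither the annotation release nor the settings of cell calling are stated there. Isoforms cannot be told apart in a 3′ assay.

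Barcodes with at least 500 UMIs, at least 200 genes and at most 20% mitochondrial UMIs were kept, which left out 54 CD45-positive barcodes. Scrublet called a further 175 (2.03%) as doublets, under the 6.93% assumed, so doublets are likely to remain. Cells were clustered in scanpy 1.11.5 with Python 3.11.15 (2000 variable genes, 30 components, 15 neighbours, Leiden resolution 2, leidenalg 0.10.2, seed 0), leaving the 6 genes out. Clusters were named "-like" from 19 marker lists, with at least 3 markers in at least 20% of cells. Where a further class showed at least 5 markers, clusters were split again, which took 32 to 42. CD45-negative classes came from both libraries clustered together, and the microglia marker limit was not applied to them.

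Summed UMIs of a class were scaled to CPM, with Poisson intervals from the exact method. Intervals are Clopper-Pearson for shares of cells and exact conditional binomial for ratios (95%). A count of 0 was set against 3 UMIs. Ratio functions and thinning were tested on simulated data. With 1 library per group no test was made and no p-value is given. The members, the 9 gene lists and the markers were chosen with earlier results of these data known. Named pathway genes were, in each list with at least 20 UMIs a gene, the 3 highest in monocyte-derived-like cells and the 2 with the largest fold between classes, a class at 0 standing at 3 UMIs. The log2 ratios between monocyte-derived-like and microglia-like cells, among genes with at least 20 UMIs in both together, have 0.5 UMIs added to each class. Like genes were the 5 with the highest r among genes with at least 100 UMIs, or the 5 highest ratios.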

Additional observations from a re-analysis of the deposited data

Results flagged for a closer look

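The following cells lie outside the classes compared, and the gene's level there lay above the interval of T cell-like cells. Arg1 had 130 CPM (112 to 151; 187 UMIs in 80 of 175 cells) in type 2 innate lymphoid-like cells, which carry the defining markers Calca (9630 CPM) and Il1rl1 (683 CPM), against 4.11 CPM in T cell-like cells. These lymphoid cells are known to contain arginase 1. They had 23.4 Arg1 UMIs for each Chil3 UMI, against 0.594 in monocyte-derived-like, 0.887 in microglia-like and 0.600 in T cell-like cells. Arg1 had 13.0 CPM (8 UMIs in 3 of 67 cells) in border macrophage-like cells. Acod1 had 17.4 CPM (25 UMIs in 7 cells) in type 2 innate lymphoid-like cells, and 36.7 CPM (13 UMIs in 2 of 42 cells) in B cell-like cells, against 0.685 CPM in T cell-like cells. Chil3 had 127 CPM in B cell-like cells, where 1 cell held 97.8% of the UMIs, against 6.85 CPM in T cell-like cells. Il4i1 had 81.9 CPM (29 UMIs in 7 cells) in B cell-like cells and 25.5 CPM (10 UMIs in 4 of 44 cells) in plasmacytoid dendritic-like cells, against 0.913 CPM in T cell-like cells.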

How the results depend on the processing

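No paired analysis was possible because each group has 1 library. Of 140 values under other settings, 106 stayed within the main value's interval and 34 moved. Ratios between classes were recomputed under 8 settings of clustering, cell filter and microglia limit. They ran from 181 to 429 for Arg1 and from 229 to 418 for Chil3 (monocyte-derived-like over microglia-like), from 7.38 to 15.4 for Acod1 (neutrophil-like over monocyte-derived-like) and from 37.6 to 1040 for Il4i1 (migratory over conventional dendritic-like, the last with both libraries clustered together). Without the limit on microglia markers, chosen after seeing the data, the levels were 776 (Arg1) and 1110 CPM (Chil3) in monocyte-derived-like cells, 313 CPM (Acod1) in neutrophil-like cells, 42.4 (Acod1) and 0.934 CPM (Nos2) in monocyte-derived-like cells and 957 CPM (Il4i1) in migratory dendritic-like cells. At 10000 CPM, Arg1 was 1100, Chil3 1640 and neutrophil-like Acod1 658 CPM. With the 1% of cells with most UMIs of the gene left out, Arg1 was 1030, Chil3 1810, neutrophil-like Acod1 668, monocyte-derived-like Acod1 44.5 and Nos2 1.13 CPM. The mean of single-cell CPM gave 956 (Arg1), 2450 (Chil3) and, in type 2 innate lymphoid-like cells, 151 CPM (Arg1). Clustering both libraries together gave 1130, 2330 and 99.6 CPM for the same 3. Median-of-ratios size factors gave 1230 CPM of Il4i1. Shares of cells depend on depth. Without thinning they were 47.5% (Arg1), 63.7% (Chil3), 17.6% (Acod1), 54.8% (neutrophil-like Acod1), 89.6% (Il4i1) and 45.7% (Arg1 in type 2 innate lymphoid-like cells), and Chil3 was found in 74.2% of cells with Arg1. Thinned to 2000 UMIs they were 37.8% (Arg1), 59.5% (neutrophil-like Acod1), 76.2% (Il4i1) and 24.8% (Arg1 in type 2 innate lymphoid-like cells). With no cell filter the CD45-negative Arg1 level was 6.99 CPM and the CD45-positive Chil3 level 106 CPM. The causes of these shifts were not tested.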
